A study of Mus musculus with 10 samples.

Results

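The 5 arrays titled CF knockout with a code starting with H were compared with the 2 arrays titled CF control, out of 10 arrays in the series. The other 3 arrays, knockouts with codes starting with L, entered the fit for its estimate of the spread and of the covariates. All animals were F2 mice of a B6xBALB cross, the grandchildren of C57BL/6 and BALB/c parents, so strain alleles across the genome differ from animal to animal. The knockouts are named in the design text as CF-/-, lacking the chloride channel gene Cftr, whereas the genotype of the controls was not spelled out. The letters H, L and D (the last on both controls) are not explained in the labels. Neither is the letter W that ends both control codes, where the knockout codes end in CF. Variable weight is mentioned in the title of the series. Age and diet were not given. The H group held the letter M on 4 arrays and F on 1, and the controls M on 1 and F on 1. The numbers in the titles fall into a lower range, which holds both controls and H replicates 4 and 5, and an upper range, which holds H replicates 1, 2 and 3. The numbers of animals in the design text differ from these 10 samples, and any others were not analysed here. Replicates are numbered in accession order. Each carries its own number in its title, nothing else says that they are separate animals, and every p-value reflects the spread among these arrays alone.

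CFTR is a chloride and bicarbonate channel of the apical membrane of epithelia. In the intestine it drives the fluid secretion that hydrates mucus, and mice without it are known for thick mucus and obstruction of the gut. Villus enterocytes digest and absorb through a brush border packed with enzymes and transporters, while crypts house stem cells, and goblet and Paneth cells secrete mucus and antibacterial proteins. The comparison addresses how these programmes differ in knockouts of group H.

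The labels give right lung as the source, but the title of the series concerns the intestine, so tissue markers were examined first. Transcripts of small intestine dominated every array: the galectin Lgals4 averaged 6919 intensity units on the 10 arrays and the ileal bile acid binding protein Fabp6 4133, both above percentile 99 of all genes. Lung epithelial transcripts were also present, with a mean of 1972 for the surfactant protein Sftpc and 3309 for the club cell protein Scgb1a1, while Foxj1 of ciliated cells (17.1) and liver albumin, Alb (13.6), were below the array medians of 18.4 to 18.9. Lung transcripts were uneven within group H. On the alveolar list, whose score is the mean deviation of its genes from their 10-array mean on the log2 scale, H replicates 2 and 5 stood at 0.92 and 0.57, the other H arrays between -0.43 and 0.11 and the controls at -0.23 and -0.33. Smooth muscle genes split the controls, with scores of -0.52 in replicate 1 and 0.59 in replicate 2. The female-expressed Xist and the Y-linked Eif2s3y matched the letter F or M on 10 of 10 arrays.

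Of 13644 genes tested, 331 (2.43%) passed an adjusted p of 0.05 in limma, 242 lower in H (1.77%) and 89 higher (0.652%). These shares are the background for the calls on every list below. Differences are on the log2(intensity + 16) scale, adjusted for number range and letter, and are given as estimate ± SE. The median over all genes was -0.0044. More than 2-fold differences were seen for 62 lower and 11 higher genes. All 5 H arrays lay below both controls for 236 of the 242 lower genes and above both for 89 of the 89 higher ones; over all genes tested, 15.8% had all 5 H arrays below both controls and 12.4% above. The lower calls were of like size on each H array, with medians from -0.69 to -0.77 against the control mean, and the higher calls had medians from 0.59 to 0.62. The genes were called on these same arrays, a choice that favours like sizes. The number of calls rested on single arrays. It was 0 without H replicate 4 (smallest adjusted p 0.0748, 1771 genes at an unadjusted p under 0.05), 0 without control replicate 1 (0.102, 1602 genes) and 0 in the fit of the 7 arrays of H and control alone (0.0519, 1914 genes). It was 7 without control replicate 2, 6, 12 and 57 without L replicates 3, 2 and 1, 58 and 137 without H replicates 5 and 1, and 415 and 433 without H replicates 2 and 3. Every call named below was therefore lost in the first 3 of these fits. All 331 genes kept their direction in all of them, which their choice on the same arrays also favours. Within the lower number range, which holds 2 H arrays and both controls, the differences of the leading genes were -1.88 ± 0.11 for Cftr, -3.35 ± 0.20 for Pdzk1, -2.31 ± 0.14 for Cubn and 2.06 ± 0.10 for Pla2g2a. Their direction there was fixed in advance, since these genes were chosen with all 5 H arrays beyond both controls. It is therefore no separate support. These SEs rest on few residual degrees of freedom and a spread pooled over genes. The upper range holds no control. With 5 arrays against 2, an exact two-sided permutation test of a single gene cannot give a p below 0.0952.

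**Figure D1:**
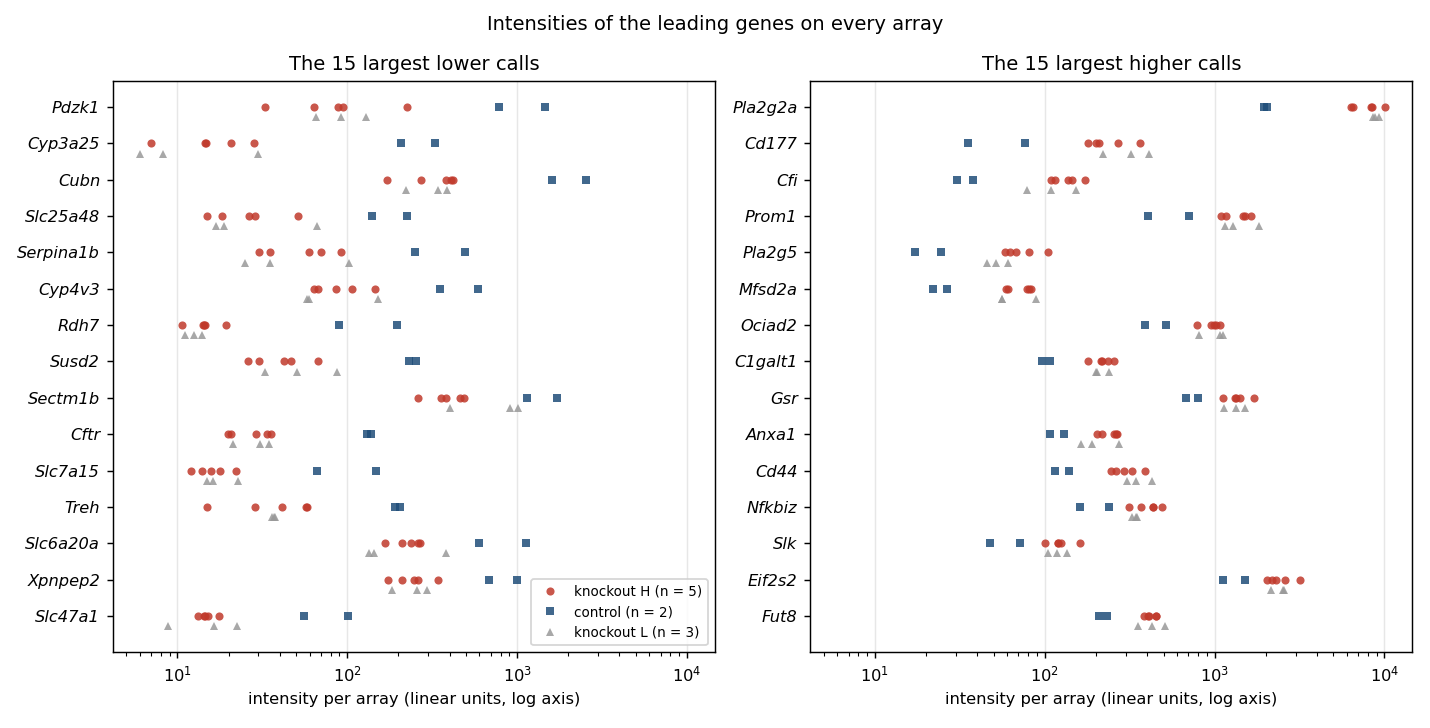
Intensities on every array, on a log axis, of the 15 genes with the largest lower and the 15 with the largest higher differences among the calls. Red circles are the 5 H knockouts, blue squares the 2 controls and grey triangles the 3 L knockouts; for each gene the red and blue points do not overlap, and the rule that chose the genes required this. Pdzk1, at the top on the left, lies between 32.6 and 223 in H and at 780.1 and 1463 in the controls.

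Cftr itself was low in every H animal. Its intensities were 33.9, 19.7, 35.4, 20.7 and 29.1 in H replicates 1 to 5 and 131 and 137 in the controls, a difference of -1.93 ± 0.17 (limma adjusted p = 0.013). The H values 19.7 and 20.7 were near the array medians of 18.4 to 18.9. The values 29.1, 33.9 and 35.4 lay further above these medians. All H values were far below both controls. The position of the probe set on the transcript, relative to the disrupted part, is not stated in the labels.

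Of the genes that anchor or activate CFTR at the apical membrane, the scaffolds Pdzk1 and Slc9a3r1 and the peptide Guca2b also fell. Pdzk1 encodes a scaffold with several PDZ domains that anchors transporters in the brush border. It read 63.98, 223, 32.6, 87.6 and 94.0 in H and 1463 and 780.1 in the controls, the largest fall among the calls (-3.51 ± 0.63, limma adjusted p = 0.038). Replicate 2 was the highest of the H arrays and still far below both controls. Slc9a3r1, a related scaffold that binds CFTR, fell by less, from 3163 and 2931 in the controls to between 1642 and 1919 in H (-0.75 ± 0.12). Guca2b, uroguanylin, a gut peptide that activates the guanylate cyclase receptor and through it CFTR, read 595, 797, 688, 795 and 729.5 in H and 2229 and 1666 in the controls (-1.36 ± 0.14, limma adjusted p = 0.0162). Its 5 H values were close together. With Cftr, these made the 4 members called among 24 tested on the list of CFTR partners and ion transport, whose median was -0.18. All 4 were lower, against 1.77% called lower over all genes. The scaffolds Pdzd3 (-0.50, limma adjusted p = 0.0788) and Slc9a3r2 (-0.09, limma adjusted p = 0.79) and guanylin, Guca2a (-0.05, limma adjusted p = 0.918), did not pass, and the signs of Slc9a3r2 and Guca2a turned in some settings. The basolateral chloride importer Slc12a2 (0.32, and 0.19 without control replicate 2) and the apical chloride-bicarbonate exchanger Slc26a3 (-0.41) did not pass either. These 5 were named after their values were seen, and a second probe set of Slc26a3 had the opposite sign (0.05).

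Brush border enzymes and the proteins that build microvilli had lower values in H. All 20 genes tested on this list had negative differences, with a median of -0.64. Of these, 8 fell and none rose, against 1.77% called lower over all genes. For 17, all 5 H arrays lay below both controls (15.8% over all genes). Treh, the disaccharidase trehalase, read 28.8, 57.4, 14.9, 41.1 and 58.1 in H and 192 and 204 in the controls (-1.83 ± 0.33, limma adjusted p = 0.0383). H replicate 3 was the lowest and no H array came within a factor of 3 of either control. Xpnpep2, an aminopeptidase that cleaves before proline, read 209, 342, 173, 263 and 249 in H and 996 and 679 in the controls (-1.77 ± 0.29). Anpep, aminopeptidase N, is among the brightest genes of the tissue and stood at 2236, 2826, 2149.6, 2853 and 3180.4 in H against 6121 and 6436 in the controls (-1.24 ± 0.23). The groups were separated for each of these enzymes. Dpp4, dipeptidyl peptidase 4, fell by a smaller amount (-0.92), as did the peptidase Naaladl1 (-0.86). The actin bundlers of microvilli Vil1 (-0.52 ± 0.09) and Espn (-0.92) and the brush border myosin Myo1a (-0.62) fell too. H values of Vil1 were nearly identical, between 2599 and 2675, with controls at 3721 and 3567. For Espn the groups overlapped, since H replicate 1 (226) lay above control replicate 1 (222). Lactase, Lct, at -0.13, did not pass, but its mean of 15.1 was below the array medians, so its difference is limited by the background. In bulk tissue, fewer enterocytes and less RNA per enterocyte cannot be told apart, here or for any list below.

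Carriers for sugars, amino acids and vitamins followed. Of 20 tested, 6 fell (1.77% over all genes) and none rose. The median was -0.64, and for 13 all H arrays lay below both controls (15.8% over all genes). Slc6a20a, which carries proline and other imino acids, read 236, 209, 167, 266 and 261 in H and 1121 and 599 in the controls (-1.82 ± 0.35, limma adjusted p = 0.0432). Slc7a8, a neutral amino acid exchanger, was dim, with 17.0, 18.8, 17.6, 19.1 and 20.2 in H and 55.5 and 47.6 in the controls (-0.96 ± 0.09, limma adjusted p = 0.013). Its H values stood at the array medians, so this difference is limited by the background. The fructose pathway was lower at both its first steps: the transporter Slc2a5 (-0.99) and the fructose kinase Khk (-1.35) fell. Khk read 102, 113, 90.7, 110.0 and 114 in H and 339 and 249.8 in the controls, a tight H group well below both. Without control replicate 1 the difference of Slc2a5 was -0.61 and that of the biotin and pantothenate carrier Slc5a6 was -0.70. The amino acid exporter Slc43a2 (-1.12) and Slc5a6 (-1.08) fell as well. The main glucose carrier Slc5a1 (-0.57, limma adjusted p = 0.108; -0.36 without control replicate 1) did not pass. Among the large falls outside this list, the amino acid transporter Slc7a15 (-1.85) and Slc47a1, an exporter of organic cations (-1.64), both with H values near the array medians, fell.

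The fat absorption genes that fell act in fatty acid uptake and triglyceride resynthesis. Of 25 tested, 4 fell (1.77% over all genes) and none rose. The median was -0.44, and for 15 all H arrays lay below both controls (15.8% over all genes). Fabp2, the intestinal fatty acid binding protein, read 4385, 4055, 3516, 3217 and 4345 in H and 7345 and 6715 in the controls (-0.97 ± 0.17, limma adjusted p = 0.0362). Dgat1, which completes triglyceride synthesis, read 728, 761, 814, 754 and 768 in H and 1458 and 1341 in the controls (-0.93 ± 0.11, limma adjusted p = 0.0212). H values of Dgat1 spanned less than 100 intensity units and lay at about the same distance below each control. The fatty acid transporter Slc27a4 (-1.18) and Mogat2, which makes diacylglycerol from absorbed monoacylglycerol (-0.72), completed the set. No gene of lipoprotein assembly passed, although several differed by as much as the called ones. The apolipoproteins Apoc3 (-1.44, limma adjusted p = 0.148) and Apoa1 (-1.02, limma adjusted p = 0.0974) had values below 0. So did Apob, the core protein of chylomicrons (-0.76, limma adjusted p = 0.244; -0.47 without L replicate 3). Mttp, the transfer protein that loads fat onto Apob, differed by -0.58 (limma adjusted p = 0.184). Apoa4 had the opposite sign (0.48, limma adjusted p = 0.597), and its value was 0.0066 without H replicate 4, 0.30 without H replicate 5 and 0.85 without L replicate 3 or within the lower number range. The sterol importer Npc1l1 (-1.20, limma adjusted p = 0.106) did not pass either. Of the genes without a call, all but Apoa4 were named after their values were seen.

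The ileum takes up cobalamin bound to intrinsic factor through a receptor of 2 proteins, cubilin and amnionless, and both were lower. Cubn, cubilin, read 271, 417, 171, 406 and 381 in H and 2548 and 1597 in the controls (-2.57 ± 0.42, limma adjusted p = 0.033). Amn, its membrane anchor, read 326, 361, 235, 310.3 and 316 in H and 912 and 730.3 in the controls (-1.48 ± 0.23, limma adjusted p = 0.0293). In both, H replicate 3 was the lowest and control replicate 1 the highest. The plasma carrier of cobalamin, Tcn2, also fell (-0.86). The subunits of the basolateral bile acid exporter, Slc51a (-0.65) and Slc51b (-0.75), fell together. The ileal bile acid binding protein Fabp6 differed by -0.51 (limma adjusted p = 0.138) without passing. In all, 5 of 12 genes tested on this list fell (1.77% over all genes) and none rose, with a median of -0.58.

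Detoxifying enzymes and efflux pumps of the enterocyte fell in 6 of 28 genes tested (1.77% over all genes) and rose in none, with a median of -0.63. Ces2a, a carboxylesterase, had the smallest p of all genes; it read 234, 255, 217, 239 and 194 in H and 662 and 584 in the controls (-1.48 ± 0.10, limma adjusted p = 0.00459). It passed the threshold in 24 of 27 alternative settings. Cyp3a25, a cytochrome P450 of drug metabolism, read 14.8, 20.6, 7.01, 28.3 and 14.6 in H and 327 and 207 in the controls (-3.11 ± 0.27, limma adjusted p = 0.013). It was well above background in the controls and near it in H, so the size of its fall is bounded by the background. The fatty acid hydroxylase Cyp4v3 (-2.33), the carboxylesterase Ces2e (-0.69), the efflux pump Abcc2 (-1.40) and the glucuronosyltransferase Ugt2b36 (-0.62) fell as well.

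Rdh7, a retinol dehydrogenase, read 14.2, 19.4, 10.7, 14.5 and 14.3 in H and 197 and 89.1 in the controls (-2.32 ± 0.22, limma adjusted p = 0.0136), the 1 call among 14 retinoid genes (median -0.24). Angptl4, a secreted inhibitor of lipoprotein lipase and a target of the fatty acid receptor PPAR alpha, read 56.3, 45.7, 33.2, 46.6 and 42.0 in H and 128 and 218 in the controls (-1.58 ± 0.21, limma adjusted p = 0.0274). The H values of Rdh7 were at background and those of Angptl4 clearly above it. With the mitochondrial thiolase Acaa2 (-0.75), Angptl4 made up the 2 calls among 19 genes of the PPAR alpha list (median -0.16). Over all genes 1.77% were called lower. On the list of arginine and proline metabolism, 2 of 12 fell (1.77% over all genes): proline dehydrogenase, Prodh (-0.81), and the mitochondrial carrier Slc25a48 (-2.39). The part of Slc25a48 in this metabolism was not tested. Further large falls on no list of function were those of Serpina1b, an alpha-1 antitrypsin (-2.36), and the membrane proteins Susd2 (-2.29) and Sectm1b (-2.02). Serpina1b stands on the list of liver and pancreas markers as its 1 call among 6 tested, while Alb was at background in both groups. Nts, the ileal hormone neurotensin (-0.91), was the 1 call among 17 enteroendocrine genes, Car13, a carbonic anhydrase (-0.77), the 1 call among 15 carbonic anhydrases and aquaporins, and the clock gene Per1 (-0.73) the 1 call among 17.

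Transcription factors that specify the small intestine moved in both directions. Cdx2, the homeobox factor that gives intestinal identity, read 252, 237, 321, 275 and 254 in H and 502 and 456 in the controls (-0.85 ± 0.13, limma adjusted p = 0.0278). Gata5 fell too (-0.53). The epithelial factor Elf3 (0.58 ± 0.09) and the pioneer factor Foxa1 (0.54) rose. Each of the 4 separated the groups on every array. They were the calls among 25 factors tested (16%, against 2.43% of all genes), whose median was -0.0024. Hnf4a, a nuclear receptor of enterocytes, stood at 1886 ± 61.4 (SD, n = 5) in H and 2012 ± 65.3 (n = 2) in the controls (-0.09), and did not pass.

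Promoters of genes that fell were searched for letters bound by the CDX, HNF1 and HNF4 families. Sites of Gata5, Elf3 and Foxa1 were not searched. The windows are the 250 bases before the start site in RefSeq's table for the mouse assembly GRCm38.p6, and both strands were read. TTTATG, a core of CDX sites, stood in 15 of 250 windows of the lower genes (6%, over 187 genes), against 6.45% of windows of all genes tested and 10.8% of all 32851 windows. GTTAAT, a core of HNF1 sites, stood in 5.6% of the lower windows, 4.19% of those tested and 6.43% of all. CAAAGTCCA, an HNF4 site, stood in 0.4%, 0.437% and 0.384%. The shares for the lower genes were thus near those of other genes, and a match describes letters only. One promoter with each motif follows, for 3 genes described above whose intensity separated H from the controls on every array. Capitals mark the motif on either strand. They are Rdh7 at chr10:127889248-127889497 on the minus strand (the first of its 2 listed promoters, the other having no match), Guca2b at chr4:119658946-119659195 on the minus strand and Treh at chr9:44672983-44673232 on the plus strand. The motif starts 208, 33 and 71 bases before the start site.
Rdh7: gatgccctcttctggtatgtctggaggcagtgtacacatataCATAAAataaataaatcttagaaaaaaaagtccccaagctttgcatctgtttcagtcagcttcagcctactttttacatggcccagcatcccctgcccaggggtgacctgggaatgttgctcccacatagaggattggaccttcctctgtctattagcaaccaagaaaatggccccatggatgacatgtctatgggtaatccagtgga
Guca2b: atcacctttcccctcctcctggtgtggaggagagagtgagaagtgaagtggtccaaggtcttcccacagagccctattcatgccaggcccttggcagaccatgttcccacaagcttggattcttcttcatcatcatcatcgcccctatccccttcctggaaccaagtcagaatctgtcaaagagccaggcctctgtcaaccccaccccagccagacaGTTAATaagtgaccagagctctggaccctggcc
Treh: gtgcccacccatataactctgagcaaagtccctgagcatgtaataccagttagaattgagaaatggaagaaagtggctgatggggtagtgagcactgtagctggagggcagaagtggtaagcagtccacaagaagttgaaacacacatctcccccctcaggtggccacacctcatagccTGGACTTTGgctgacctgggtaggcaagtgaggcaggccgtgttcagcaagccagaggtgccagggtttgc

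**Figure D2:**
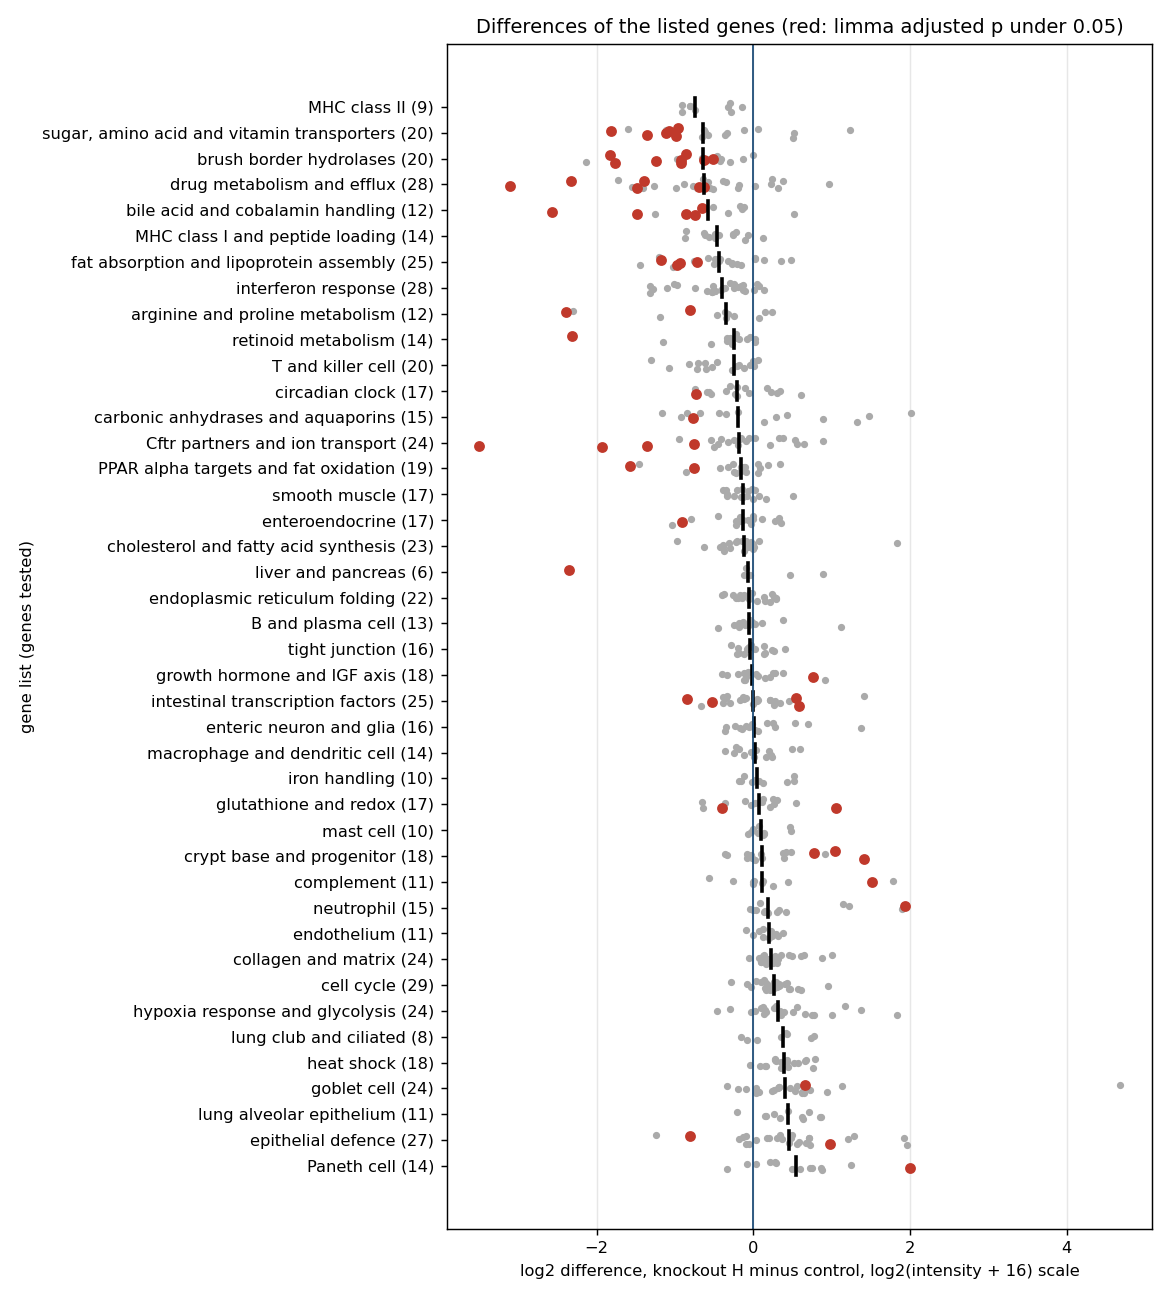
Log2 difference, H minus control, of every tested gene (points) on the 42 gene lists, with the number tested in parentheses. Red points passed limma's adjusted p of 0.05, black bars are list medians and the blue line is the median of all genes (-0.0044). Brush border, nutrient transport, fat, bile acid and drug metabolism lists have medians from -0.64 to -0.44 with red points on the left only, and Paneth, goblet and epithelial defence lists have medians from 0.40 to 0.55 with few red points.

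Genes that rose included members of the Paneth, goblet and crypt lists. Pla2g2a, the antibacterial phospholipase of Paneth cells, read 6549, 6327, 10080.0, 8406 and 8293 in H and 1950.3 and 2042 in the controls (2.004 ± 0.20, limma adjusted p = 0.0136), about 4.01-fold. Both controls were at the same level and every H array was more than 3 times higher. C57BL/6 carries a disrupted allele of this gene that can segregate in the F2, genotypes at it were not given, and with 2 controls its uneven share and the knockout cannot be told apart. Pla2g2a was the 1 call among 14 Paneth genes, which had a median of 0.55 and 7 members with all H arrays above both controls (12.4% over all genes). Of the 14, 12 had positive and 2 negative differences. Lysozyme, Lyz1, a main Paneth marker, was among the 2 and did not pass (-0.33, limma adjusted p = 0.501). It read 8407, 9662, 5677, 7697 and 8073 in H and 9807 and 8896 in the controls. Mmp7, the protease that activates Paneth defensins, read 1431, 2028, 2410.1, 1931 and 1774 in H and 975 and 575 in the controls (1.25, limma adjusted p = 0.108). Its groups did not overlap, but it did not pass, and without control replicate 2 the difference was 0.67.

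Goblet cell genes had a median of 0.40 over 24 tested, 10 of them with all H arrays above both controls (12.4% over all genes). They held a single call (4.17%, against 2.43% of all genes). This was Creb3l4, a transcription factor of secretory cells, which read 52.5, 52.1, 55.2, 48.2 and 53.3 in H and 33.9 and 21.98 in the controls (0.66 ± 0.13, limma adjusted p = 0.043; 0.41 without control replicate 2). The widest difference on the list did not pass. Retnlb, a protein that goblet cells secrete under microbial and immune stimulation, read 2472, 355, 6919, 3226 and 4118 in H and 20.2 and 512 in the controls (4.69 ± 1.17, limma adjusted p = 0.0829). H replicate 2 (355) lay below control replicate 2 (512), and the controls themselves differed more than 20-fold. Agr2, which folds mucins, differed by 0.62 (0.35 without control replicate 2) and Atoh1, the factor that commits cells to the secretory lineage, by 0.94, neither passing. The main gel-forming mucin, Muc2, was at 5848 ± 894 (SD, n = 5) in H and 5812 ± 94.1 (n = 2) in the controls (0.07), and the mucus peptide Tff3 differed by -0.09. Of the 24, 21 had positive and 3 negative differences. The goblet marker Fcgbp was the 1 member with all H arrays below both controls (15.8% over all genes). It read 4255, 3762, 4625, 4286 and 4191 in H and 5091 and 5422.5 in the controls, and did not pass (-0.34, limma adjusted p = 0.153). Retnlb, Agr2, Atoh1, Mmp7 and the genes that follow without a call were named after their values were seen.

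Of 18 genes on the crypt base and progenitor list 3 rose (0.652% over all genes), none fell and the median was 0.10. Prom1, a membrane protein of crypt cells, read 1473, 1094, 1639, 1505 and 1162 in H and 403 and 709.6 in the controls (1.42 ± 0.29, limma adjusted p = 0.0482). Cd44, an adhesion receptor of crypt cells and a target of Wnt signalling, read 327, 263, 389, 293 and 246 in H and 115 and 139 in the controls (1.04 ± 0.19, limma adjusted p = 0.0391). For both genes every H array exceeded the higher control. Sox4 rose by 0.77 on its brightest probe set, while its dimmer ones above the filter had 0.18, 0.17, 0.62, -0.07 and 0.01. The stem cell receptor Lgr5 (-0.37) did not pass, and its value was -0.17 without control replicate 1 and -0.56 without control replicate 2. Olfm4, a secreted crypt base protein, differed by 0.92 (limma adjusted p = 0.0698), or by 0.49 without control replicate 2.

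On the list of epithelial defence 1 gene rose and 1 fell. Nfkbiz, an inducible regulator of NF-kappaB target genes, read 312.5, 436, 493, 369 and 434 in H and 162 and 239.9 in the controls (0.98 ± 0.18, limma adjusted p = 0.0402). In the same pathway Relb, a subunit of NF-kappaB, fell (-0.81), and these were the 2 calls among 27 genes of epithelial defence (median 0.46). Duoxa2, the maturation factor of the epithelial hydrogen peroxide oxidase, read 78.4, 238, 242, 229.9 and 194 in H and 39.8 and 57.9 in the controls (1.93, limma adjusted p = 0.0704). H replicate 1 stood apart from the other 4, and the gene did not pass. Lrg1, a secreted glycoprotein of inflammation, differed by 1.90 (limma adjusted p = 0.0825; 1.20 without control replicate 1), and the water channel Aqp4 by 2.01 (limma adjusted p = 0.0567).

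Cd177, a glycoprotein known from neutrophils, read 208, 201, 366, 269.6 and 180.2 in H and 35.1 and 76.8 in the controls (1.94 ± 0.39, limma adjusted p = 0.0466; 1.25 without control replicate 1). It was the 1 call among 15 neutrophil genes (median 0.19), of which 5 had all H arrays above both controls (12.4% over all genes). Other neutrophil markers differed in level and in size of difference. S100a8, a calcium-binding protein abundant in neutrophils, read 20.2, 82.5, 35.2, 42.0 and 48.8 in H and 12.6 and 13.4 in the controls (1.14, limma adjusted p = 0.144). Its partner S100a9 read 20.9, 106, 35.9, 50.2 and 57.7 in H and 13.4 and 15.3 in the controls (1.22, limma adjusted p = 0.18). For both genes the controls were below the array medians, every H array was above both controls and H replicate 2 was the highest, but neither passed. The granule genes averaged near or below the array medians: Ngp 17.7, Camp 17.0 and Mpo 12.6. The part of neutrophils in the rise of Cd177 was not tested. Cfi, a protease that inactivates complement, read 114, 172, 145, 138 and 109 in H and 30.3 and 37.9 in the controls (1.51 ± 0.24, limma adjusted p = 0.0312), the 1 call among 11 complement genes (median 0.11). Each H value of Cd177 and Cfi was more than 2 times the higher control. Gsr, glutathione reductase, read 1120.3, 1310.0, 1334, 1694 and 1407 in H and 674 and 799.8 in the controls (1.05 ± 0.13, limma adjusted p = 0.0245). The lipid peroxide reductase Gpx4 fell (-0.40), so the 17 genes of glutathione and redox held 1 call in each direction. Other large rises were those of the secreted phospholipase Pla2g5 (1.34), the lysophospholipid transporter Mfsd2a (1.20), the phospholipid-binding annexin Anxa1 (1.05) and Ociad2 (1.15). Glycosylation was represented by C1galt1, which extends the core of mucin-type sugar chains (1.11), and Fut8, which adds the core fucose of N-glycans (0.86; a dimmer probe set had -0.14). The kinase Slk (0.94), the translation initiation factor subunit Eif2s2 (0.92) and the growth factor binding protein Igfbp2 (0.76) rose as well.

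Lists of immune presentation had lower medians without any call. The 9 MHC class II genes, which present peptides to helper T cells, had a median of -0.75, but for only 1 did all H arrays lie below both controls. Their score spread widely within H: H replicates 1 and 3 stood at -0.90 and -0.59, replicates 4 and 5 at -0.04 and -0.06, replicate 2 at 0.60, and the controls at 0.51 and 0.27. With H replicates 2 and 5 both left out the median was -1.46. MHC class I and peptide loading genes had a median of -0.47 (14 tested) and T and killer cell genes -0.24 (20 tested). Interferon response genes had a median of -0.40 (28 tested), 9 of them with all H arrays below both controls (15.8% over all genes). Irf7, the regulator of interferon genes and the member closest to the threshold, read 153, 122, 119, 119 and 131 in H and 348 and 227 in the controls (-0.97 ± 0.20, limma adjusted p = 0.0514). All H values of Irf7 were below both controls. Higher medians without a call were found for heat shock (0.39, 18 tested), hypoxia response and glycolysis (0.31, 24 tested), cell cycle (0.27, 29 tested) and collagen and matrix (0.23, 24 tested). The lung lists also had higher medians without a call. The alveolar list had a median of 0.44, with 10 of 11 genes above 0, and the club and ciliated list 0.38 (8 tested). With H replicates 2 and 5 both left out the medians were -0.07 and -0.24 for these 2 lung lists, 0.26 for heat shock, 0.44 for hypoxia response and glycolysis, 0.17 for cell cycle and 0.42 for collagen and matrix.

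**Figure D3:**
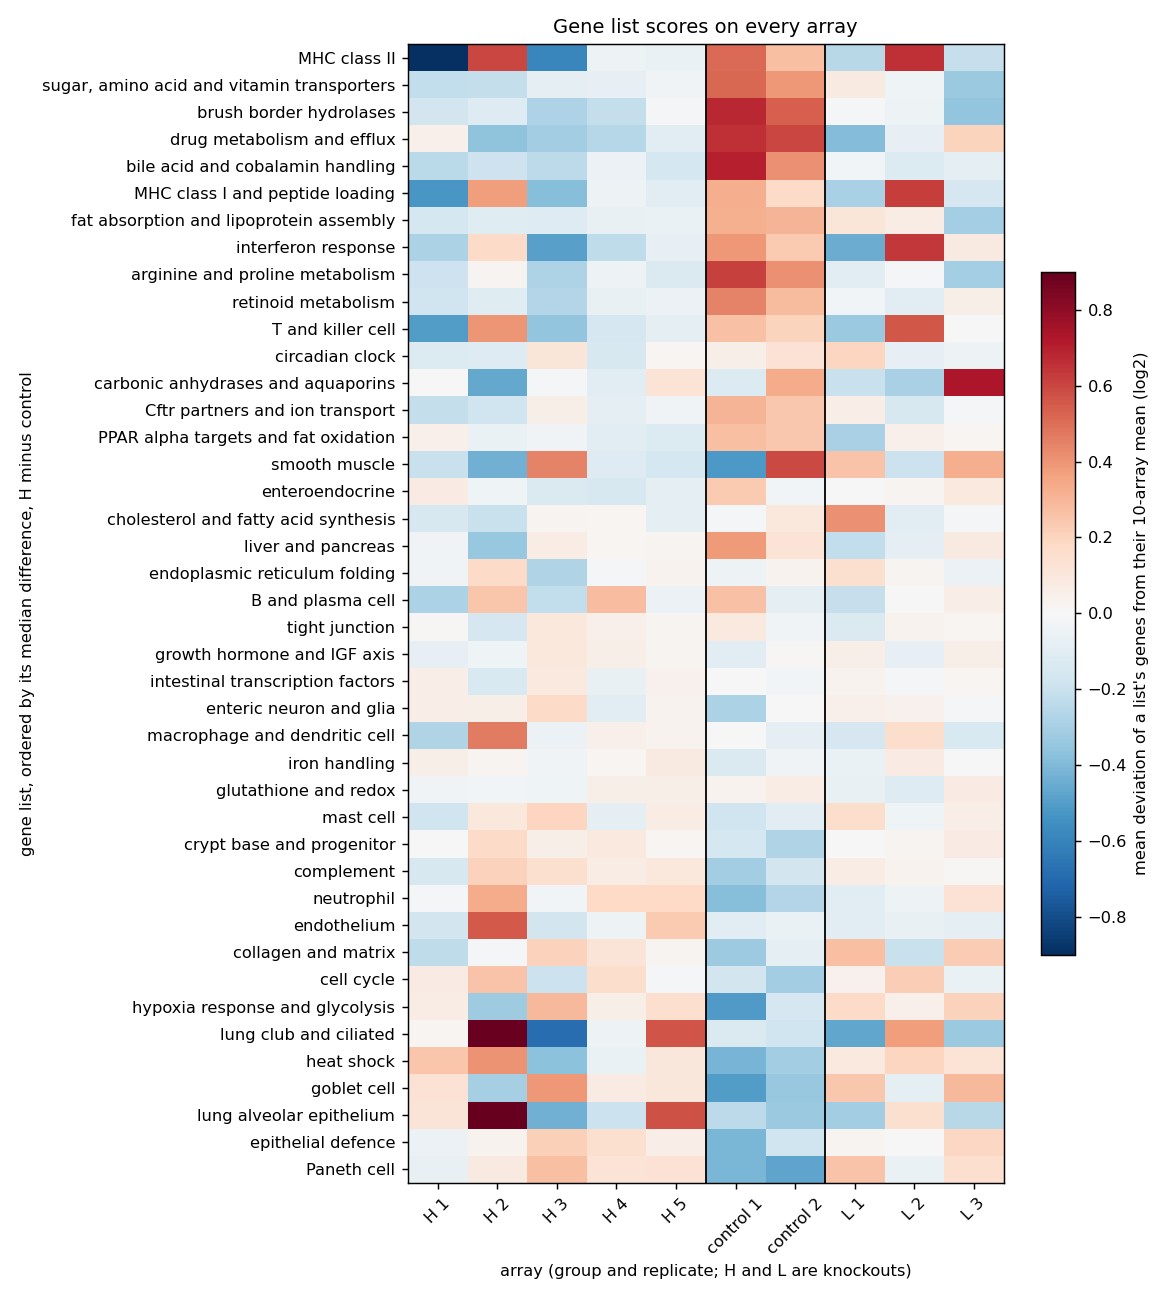
Scores of the 42 gene lists (rows, ordered by median difference) on every array (columns), as the mean log2 deviation of a list's genes from their 10-array mean; red is high and blue low, and vertical lines separate H, control and L. Brush border scores are 0.68 and 0.54 in the controls and -0.28 to -0.02 in H. MHC class II and lung lists vary from array to array within H, with the lung alveolar score at 0.92 in H replicate 2.

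The absorptive lists varied little within H. Brush border scores were -0.17, -0.12, -0.28, -0.22 and -0.02 in H replicates 1 to 5 and 0.68 and 0.54 in the controls. Fat absorption scores lay between -0.16 and -0.06 in H and at 0.32 and 0.31 in the controls. On the goblet list H replicate 2 (-0.30) lay close to control replicate 2 (-0.34), while the other H arrays stood between 0.07 and 0.39. On the Paneth list the H arrays stood between -0.07 and 0.27 and the controls at -0.41 and -0.47. Lung transcripts also varied within H. With the lung score as a covariate 576 genes passed, 311 of them among the 331, and with the smooth muscle score 397 passed, 290 of them among the 331. With H replicates 2 and 5 both left out 99 passed, 66 of them among the 331.

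No gene differed between H and L knockouts past the threshold. Of 13644 genes, 0 (0%) passed in limma for H minus L, with a smallest adjusted p of 0.99982 and 303 genes at an unadjusted p under 0.05. For the 331 genes called against control, the median size of the H minus L difference was 0.095 on the log2 scale. The value over all genes was not computed. The calls also favour genes of small spread, which the L arrays helped to estimate. For Cftr it was -0.10 with a 95% interval of -0.44 to 0.24, for Pla2g2a -0.21 (-0.61 to 0.19) and for Guca2b 0.03 (-0.26 to 0.31). The interval of Pdzk1 was wide (-0.03, -1.31 to 1.25), so a difference of that size between H and L was not detectable for it. Clca3b, a member of the calcium-activated chloride channel regulator family, was among the 6 genes highest in H against L by moderated t. It read 398, 469.9, 368, 498 and 444 in H, 306, 366 and 391.6 in L and 314 and 208 in the controls, so that H replicate 3 overlapped L. It rose in H against control (0.85 ± 0.13, limma adjusted p = 0.0278) and differed by 0.43 against L (limma adjusted p = 0.99982). Ces2a also stood in this group, with 167, 236 and 171 in L and a difference of 0.40 (limma adjusted p = 0.99982).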

How the data were processed

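Each sample was hybridised to an oligonucleotide array. The values deposited by the authors are intensities on a linear scale, in a file covering the whole series; how they were summarized, background corrected and normalized is not given in the sources used. The arrays had medians of 18.4 to 18.9 and no pair of arrays was identical, so no further normalization was applied. Arrays have no read depth: the number of arrays, above all the 2 controls, limits the precision.

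Of 45101 probe sets, 64 were array controls; 34945 had 1 gene symbol, 932 several and 9160 none, and only the first were used, with 34741 symbols updated through the RefSeq gene list of GRCm38.p6. The probe set with the highest mean stood for each of 18193 genes, and genes at or under the 25th percentile of the mean were left out, which left 13644. Values were log2(intensity + 16), which understates differences of dim genes. All 10 arrays in 3 groups were modelled in R 4.3.3 with lmFit and eBayes of limma 3.58.1, taking number range and letter as covariates, Benjamini-Hochberg adjustment over all genes, a threshold of 0.05 and 5 residual degrees of freedom. The controls share the lower number range, so the upper range arrays are set beside them through the range term, which is estimated within the knockouts. On simulated data with the same design, 50 of 50 genes changed by 2 on the log2 scale and 45 of 50 changed by 1 were recovered in each direction, with 9 false calls. The simulated noise was independent between genes and held no range, letter, lung or smooth muscle effect. These shares therefore check the fitting code and do not measure sensitivity or false calls in the real arrays.

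The arrays, the 42 gene lists (783 of 850 entries matched a gene) and the tests were chosen with earlier results of these data known. Named were Cftr, the 15 largest calls of each direction with groups that do not overlap, up to 4 called members of each list (or the 2 with the smallest p where none was called), the leading genes of H against L and tissue markers, not all of which are printed; other names were chosen after their values were seen, among them the further called list members Anpep, Naaladl1, Espn, Myo1a, Slc2a5, Slc5a6, Slc51a and Ugt2b36. Alternatives changed the pseudocount, filter, normalization, probe set rule, covariates, variance model and the arrays included. Data were read with Python 3.11.15 and version 1.17.8 of the R package data.table, and plots drawn with matplotlib 3.10.9.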

Additional observations from a re-analysis of the deposited data

Results flagged for a closer look

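Among 170 genes and lists examined in group H, 6 had 1 array whose gap to the nearest other, divided by the range of the 5, exceeded Dixon's 95% critical value of 0.71. Chance does so for about 1 group in 20. H replicate 1 was far below the other 4 for Duoxa2 (78.4 against 194 to 242, ratio 0.795). H replicate 2 was the low array for Muc2 (4315 against 5941 to 6588, ratio 0.756), for the dipeptidase Dpep1 (889 against 1130.4 to 1182, ratio 0.842), for guanylin, Guca2a (3022 against 4145 to 4646, ratio 0.777), and for the score of the liver and pancreas list (-0.34, ratio 0.763). H replicate 3 was the low array for the diamine oxidase Aoc1 (1024 against 1259.8 to 1362, ratio 0.727).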

How the results depend on the processing

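The count of 331 calls (242 lower, 89 higher) stayed within 1.5 times under a pseudocount of 64, the filters, quantile normalization, the mean over probe sets, the number range alone as covariate (lower calls 300, higher 142), the moderated variance with trend (299) and the smooth muscle covariate (397, with 140 higher). It was 155 (121 lower, 34 higher) with a pseudocount of 1, 488 probe sets (192 higher) with each probe set on its own, 878 (514 and 364) without covariates, 653 (388 and 265) with the letter alone, 576 (higher 245) with the lung score as covariate, 99 (69 and 30) without H replicates 2 and 5, 0 (0 and 0) in the 7 arrays of H and control, and 1143 (637 and 506) in the lower number range alone, which holds 2 arrays a group. The count in the lower number range rests on few residual degrees of freedom and a spread pooled over genes. Leaving out H replicates 1 and 3, an alternative chosen after seeing the data, gave 568 (326 and 242). Leaving out 1 array gave from 0 to 433 calls, 0 to 287 lower and 0 to 162 higher. The share of calls that were lower, 73.1% in the analysis reported, was 58.5% without covariates, 59.4% with the letter alone, 57.5% with the lung score, 60.7% with each probe set on its own and 55.7% in the lower range. The cause of these shifts was not tested. Calls of H against L numbered 0 in every setting that could be fitted.

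Lyz1 and Fcgbp were not followed through the alternative settings or their other probe sets. The 4 named genes whose sign turned had differences near 0: Hnf4a was 0.084 with the mean over its probe sets, and Muc2 was -0.0063 without covariates and -0.0030 with the letter alone. Guca2a was 0.066 with the lung score as covariate, 0.061 without H replicates 2 and 5 and from -0.11 to 0.0055 with 1 array left out, and Slc9a3r2 was 0.0086 with the mean over its probe sets and from -0.16 to 0.0024 with 1 array left out. No paired analysis was possible because the labels give no replicate numbers. Apart from the 2 lung lists, the list medians named as lower or higher kept their sign in all 27 settings. Examples are brush border (-0.79 to -0.56), drug metabolism (-0.73 to -0.39), goblet (0.34 to 0.62) and Paneth (0.39 to 0.69). The medians of the lung alveolar list (-0.07 to 0.82) and the club and ciliated list (-0.24 to 0.61) crossed 0. So did those of the complement list (-0.01 to 0.31) and the transcription factors (-0.12 to 0.05). Of 83 other probe sets for the named genes, 73 had the same sign. Genes at the array medians are close to background, which bounds their folds.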

Other observations

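Genes on none of the lists fell as well; all were called in limma and were picked here after their values were seen. Enzymes that split peptides or metabolise amino acids fell: Pepd, which cleaves dipeptides ending in proline (-1.27 ± 0.24, limma adjusted p = 0.0433), the dipeptidases Cndp2 (-1.10) and Cndp1 (-1.54), the membrane dipeptidase Dpep1 (-1.05) and alanine aminotransferase, Gpt. Gpt read 296, 299.6, 311, 287 and 286 in H and 665 and 643 in the controls, a narrow H group at less than 50% of the lower control (-1.21 ± 0.11, limma adjusted p = 0.013). Genes of glucose release fell together, with the gluconeogenic phosphatase Fbp1 at -1.39, the glucose 6-phosphatase G6pc at -0.60 and the transporter that feeds it, Slc37a4, at -0.77. G6pc was near background in H. Amine oxidases fell as well, diamine oxidase Aoc1, which breaks down histamine (-1.10), and monoamine oxidase Maob (-1.62). Further carriers fell: the citrate transporter Slc13a2 (-0.98), the inositol transporter Slc5a11 (-1.15), the magnesium channel Trpm6 (-1.14) and the ergothioneine and carnitine carrier Slc22a4 (-0.84, and -0.54 without control replicate 1). Of signals made by the villus epithelium, the hedgehog ligand Ihh (-0.76) and Ccl25, the chemokine that draws lymphocytes to the small intestine (-1.07), were lower. Ccl25 read 1378, 1387, 1089, 1239 and 1294 in H and 2688 and 2281 in the controls.

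Among the 89 genes that rose were several of ribosome making and translation, also picked after their values were seen. They included nucleophosmin, Npm1 (0.85 ± 0.10, limma adjusted p = 0.0213), and the nucleolar proteins Nop58 (0.71), Pno1 (0.70) and Wdr12 (0.55). The initiation factor subunits Eif2b1 (0.50) and Eif3e (0.45) and the poly(A) binding protein Pabpc1 (0.43) rose too. Dimmer probe sets of Eif3e had -0.09 and 0.08. Npm1 read 926, 946, 819, 873 and 899 in H and 529.9 and 438 in the controls, with all H arrays above both. Signalling genes that rose were Kitl, the ligand of the Kit receptor (0.63), the cytokine Mif (0.65) and Pla2g4a, the phospholipase that releases arachidonic acid (0.49). The zinc transporter Slc39a8 rose by 0.81 and the annexin Anxa3 by 0.85. No theme was tested for any of these groups.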
